A study of Rattus norvegicus with 35 samples.

Results

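Collagen chains and the enzymes that process them were followed in neonatal rat ventricular myocytes (NRVMs) under cyclic mechanical stretch. Members were the genes whose symbol is Col and a number, together with 3 prolyl 4-hydroxylase subunits, 3 lysyl hydroxylases, 4 lysyl oxidases, the chaperone Serpinh1, the C-proteinase Bmp1 and its enhancer Pcolce. They came to 54 genes of 14217 on the array, 41 chains and 13 processing proteins, and were read by 76 probe sets. Each gene was represented by the brightest probe set that reads it alone, and 19 members had several.

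RNA was measured on 35 Affymetrix rat expression arrays, with 5 arrays in each of 7 groups. Cells came from Sprague-Dawley rats of 2 to 4 days of age. Set I held unstretched cells (controls with the label suffix a) and cells stretched for 1, 4 or 12 h, and set II held other unstretched cells (suffix b) and cells stretched for 24 or 48 h. The labels give the control's letter only, and a was taken for the first and b for the second of the sets in the study's methods. All groups, controls included, grew on flexible plates coated with collagen I in serum-free medium, and stretch in a culture began at different times and stopped together. The cells were enriched for myocytes by pre-plating, so other heart cells remained. Fewer cells of a type and less RNA per cell cannot be told apart in such RNA. The 3 times of set I share 5 control arrays, and so do both times of set II, so their fold changes are not independent of one another.

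Collagens are trimers of chains that wind into a triple helix. The chains are hydroxylated on proline and lysine in the endoplasmic reticulum, folded with the help of Serpinh1, trimmed outside the cell and cross-linked by lysyl oxidases. Types I and III form the fibrils of the heart's interstitium, type IV the sheet of the basement membrane around each myocyte, and type VI a beaded filament network between them. In the heart most fibrillar collagen is made by fibroblasts, while type IV chains are made by several cell types.

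A probe set was called higher or lower where the adjusted P of the stretched group against the control of its set was under 0.05. Values below are log2 intensities, and changes are differences of group means on that scale with their standard error. Of the 54 members, 32 were called at 1 time or more and 22 at none. The share of all genes called at 1 time or more was not counted. Col12a1, P4ha1 and Plod2 were higher at all 5 times and Col6a6 was lower at all 5. Col24a1 was the 1 member higher at some times and lower at another.

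At 1 h 3 members were higher and 1 was lower, or 5.56% and 1.85% of the members, where 8.24% of all genes were called higher and 8.3% lower. After 4 h 11 were higher and 5 lower (20.4% and 9.26%), against 17.1% and 19.2% of all genes. By 12 h 7 were higher and 11 lower (13.0% and 20.4%), against 19.4% and 19.7%. At 24 h 12 were higher and 5 lower (22.2% and 9.26%), against 13.5% and 10.1%. After 48 h 16 were higher and 9 lower (29.6% and 16.7%), against 22.5% and 18.4%. The members' share in the higher direction lay below that of all genes at 1 and 12 h and above it at 4, 24 and 48 h. Their share in the lower direction lay below that of all genes at 1 and 4 h and near it at 12, 24 and 48 h. Median changes of the members were 0.015, 0.001, -0.078, 0.037 and 0.104 at the 5 times, and those of all genes 0.002, -0.004, 0, 0.03 and 0.044.

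Calls that also reached 1.5-fold in either direction numbered 1, 2, 2, 6 and 9 members, or 1.85%, 3.7%, 3.7%, 11.1% and 16.7%. Among all genes these shares were 1.32%, 3.57%, 4.09%, 3.32% and 9.09% in the same order. The 9 genes were Col6a6, Col8a1, Col8a2, Col12a1, Col15a1, Col24a1, Loxl1, P4ha3 and Plod2.

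**Figure D1:**
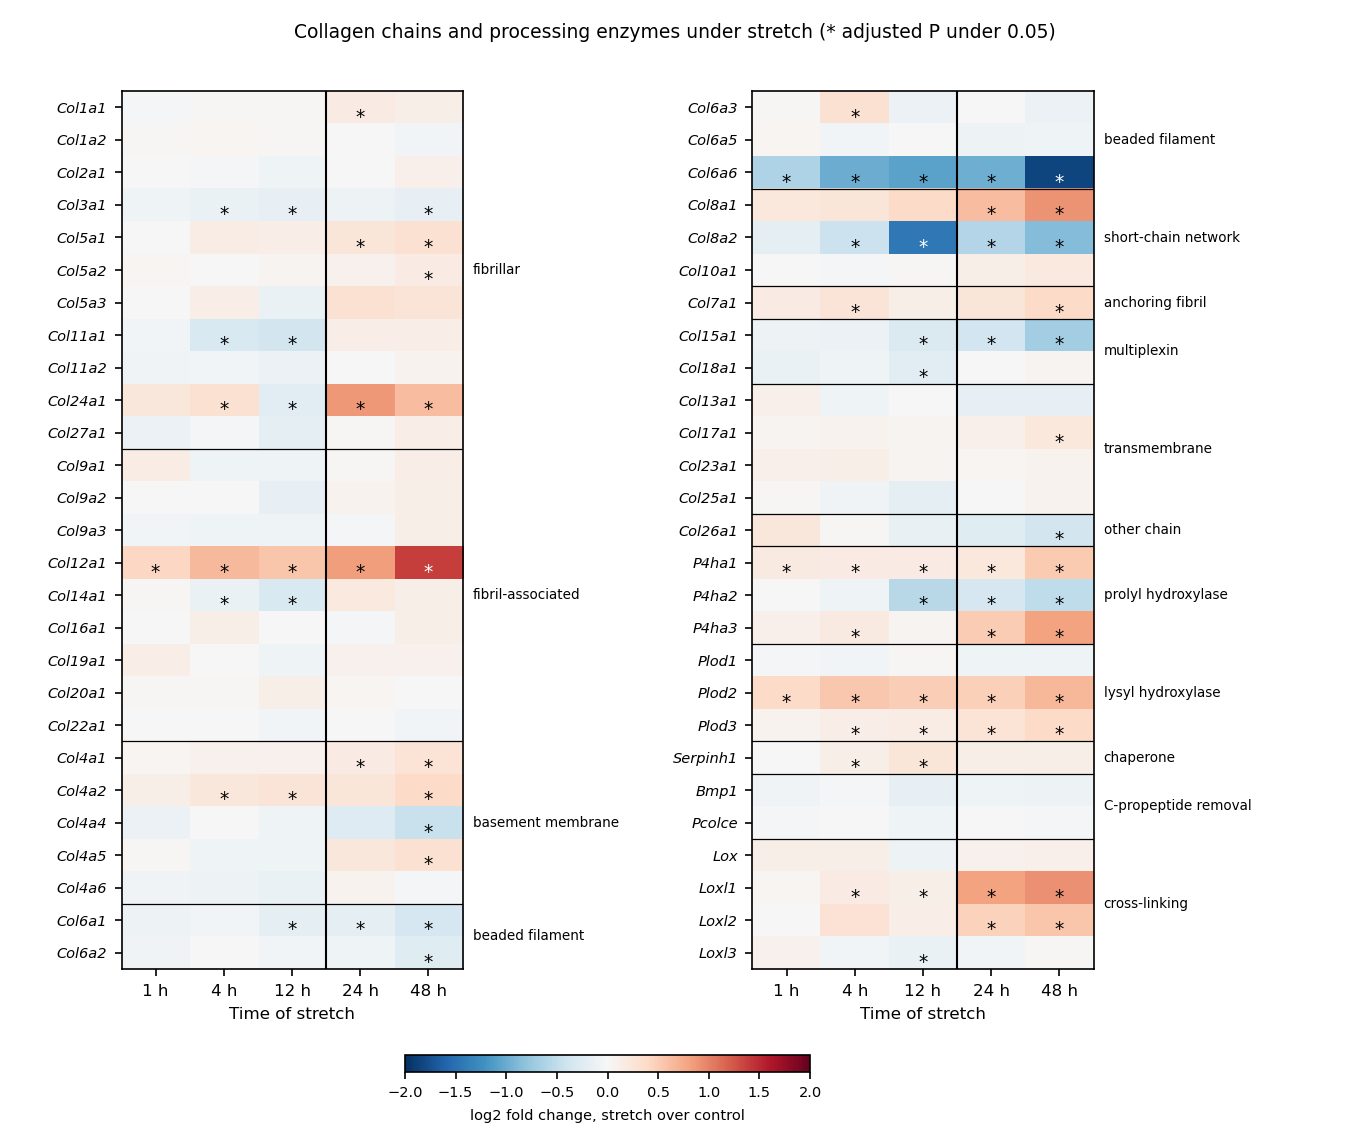
Log2 fold change of each of the 54 members (rows, grouped by role) at the 5 times of stretch (columns; the black line parts set I from set II), with colour from blue (lower) to red (higher) and a star where the adjusted P was under 0.05. Col12a1 and Plod2 are red and Col6a6 is blue in every column, while Col1a1 and Col1a2 stay near white.

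Col1a1 and Col1a2, which encode the 2 chains of type I collagen, differed from control by at most 0.17 at any time. With Col3a1 they read 13.05 to 13.95, where the brightest probe set of an array read 14.26 to 14.52, and whether changes so near the top of the scale were compressed was not tested. In set I Col1a1 read 13.35, 13.42, 13.36, 13.45 and 13.23 without stretch and 13.44, 13.38, 13.45, 13.34 and 13.37 after 12 h. In set II it read 13.12, 13.20, 13.05, 13.17 and 13.27 without stretch, 13.22, 13.37, 13.32, 13.40 and 13.35 after 24 h and 13.30, 13.22, 13.24, 13.33 and 13.27 after 48 h. The groups overlapped at each of these times, and the single call of Col1a1 was a higher level at 24 h (0.17 ± 0.052 SE, adjusted P = 0.0338). Its other probe set gave 0.07 at 24 h and was not called (adjusted P = 0.533). The call of Col1a1 at 24 h was lost without any 1 of arrays 1, 3 or 4 of the control group or any 1 of arrays 2, 3, 4 or 5 of the 24 h group, and with quantile normalization, with 1 stretch group fitted alone or with the mean of its probe sets (highest adjusted P = 0.136).

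Col1a2 was called at no time, with changes of 0.03, 0.04, 0.03, 0.0 and -0.06. The 95% intervals bound its change to between -0.17 and 0.14 over the 5 times. Col3a1, the type III chain, was lower at 4 h (-0.13 ± 0.037 SE, adjusted P = 0.0119), at 12 h (-0.16 ± 0.037 SE, adjusted P = 0.00241) and at 48 h (-0.16 ± 0.0402 SE, adjusted P = 0.00602). The stretched arrays of Col3a1 lay below all controls at 12 and 48 h, and also at 1 and 24 h where it was not called, and overlapped them at 4 h. The call of Col3a1 at 4 h was lost with arrays centred on their median or with 1 stretch group fitted alone (highest adjusted P = 0.069). The call of Col3a1 at 48 h was lost with arrays centred on their median (highest adjusted P = 0.0596).

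Type V chains help to start type I fibrils, and 2 of the 3 measured were called at 48 h. Col5a1 was higher at 24 h (0.24 ± 0.0592 SE, adjusted P = 0.00841) and 48 h (0.31 ± 0.0592 SE, adjusted P = 0.000676), and Col5a2 at 48 h (0.17 ± 0.0615 SE, adjusted P = 0.0391). The call of Col5a2 at 48 h was lost without any 1 of arrays 1, 2, 3 or 5 of the control group or any 1 of arrays 1 or 4 of the 48 h group, and with the mean of its probe sets (highest adjusted P = 0.0921). A second probe set of Col5a2 was lower at 12 h (-0.09, adjusted P = 0.0458), where the first was not called (0.05, adjusted P = 0.328). Col5a3 was not called at any time against control and changed by 0.31 and 0.26 in set II (adjusted P = 0.0828 and 0.108), although its level at 12 h was below that at 4 h (-0.27 ± 0.0559 SE, adjusted P = 0.00334). Col11a1, a chain of type XI collagen, was lower at 4 h (-0.30 ± 0.0633 SE, adjusted P = 0.000878) and 12 h (-0.37 ± 0.0633 SE, adjusted P = 9.06e-05) and not called in set II, where it changed by 0.14 and 0.13.

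Col24a1, a fibrillar chain known from developing bone, was higher at 3 times and lower at 12 h. Its controls in set I read 7.70, 7.62, 7.78, 7.91 and 7.75, and the arrays at 1 h read 7.88, 8.01, 7.94, 8.02 and 7.99. At 4 h they read 8.04, 8.20, 8.05, 8.19 and 7.86 and at 12 h 7.71, 7.21, 7.63, 7.52 and 7.59. The 4 h arrays lay mostly above and the 12 h arrays mostly below the controls, with overlap at both times. Col24a1 was higher at 4 h (0.31 ± 0.081 SE, adjusted P = 0.00503) and lower at 12 h (-0.22 ± 0.081 SE, adjusted P = 0.0416), and the fall between them passed its own test (-0.53 ± 0.081 SE, adjusted P = 0.000147). The call of Col24a1 at 12 h was lost without any 1 of arrays 1, 3, 4 or 5 of the control group or any 1 of arrays 2 or 4 of the 12 h group, and by the methods' one-way analysis, with arrays centred on their median or with 1 stretch group fitted alone (highest adjusted P = 0.146). In set II the controls read 7.25, 7.26, 7.37, 7.42 and 7.45, against 7.90, 8.20, 8.28, 8.42 and 8.32 after 24 h and 8.11, 7.64, 8.05, 8.16 and 7.92 after 48 h. Neither stretched group overlapped these controls, and Col24a1 was higher at 24 h (0.87 ± 0.102 SE, adjusted P = 3.58e-05) and 48 h (0.62 ± 0.102 SE, adjusted P = 0.000146).

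The member with the largest rise at 48 h was Col12a1, which encodes a fibril-associated collagen that sits on the surface of type I fibrils. In the controls of set I Col12a1 read 8.39, 8.46, 8.46, 8.57 and 8.39, and at 1 h it read 8.91, 9.0, 8.87, 8.82 and 8.72. At 4 h the arrays read 8.96, 9.40, 9.14, 9.11 and 8.93, and at 12 h 9.05, 9.02, 9.03, 8.96 and 8.99. All 15 stretched arrays of set I lay above all 5 controls. Set II gave 7.83, 8.16, 8.12, 8.34 and 8.20 without stretch, 8.37, 9.19, 8.96, 9.18 and 9.08 after 24 h and 9.48, 9.54, 9.58, 9.53 and 9.44 after 48 h. These groups did not overlap the controls either, although the first array at 24 h lay far below the other 4.

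The change of Col12a1 was 0.41 ± 0.0712 SE (adjusted P = 0.000397) at 1 h, 0.65 ± 0.0712 SE (adjusted P = 5.36e-07) at 4 h and 0.56 ± 0.0712 SE (adjusted P = 3.19e-06) at 12 h. It was 0.83 ± 0.129 SE (adjusted P = 0.000334) at 24 h and 1.38 ± 0.129 SE (adjusted P = 5.49e-07) at 48 h, the last a 2.61-fold rise. The steps from 1 to 4 h (0.24 ± 0.0712 SE, adjusted P = 0.0263) and from 24 to 48 h (0.56 ± 0.129 SE, adjusted P = 0.0157) passed their own tests. A dimmer probe set of Col12a1 was also higher at 1, 4, 12 and 48 h, by 0.20 to 0.51, and another, with a mean of 4.41, was not called.

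Col14a1, the fibril-associated chain most like Col12a1 in its place on fibrils, was lower at 4 h (-0.13 ± 0.0434 SE, adjusted P = 0.0323) and 12 h (-0.31 ± 0.0434 SE, adjusted P = 1.03e-05) and not called in set II. Its second probe set was also lower at 12 h (-0.34, adjusted P = 0.000251) but was not called at 4 h (-0.06, adjusted P = 0.546). The other 7 fibril-associated chains (Col9a1, Col9a2, Col9a3, Col16a1, Col19a1, Col20a1 and Col22a1) were called at no time. Among them Col16a1 had a mean of 9.31 over the 35 arrays, and the rest had means from 4.04 (Col9a1) to 5.84 (Col9a2).

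**Figure D2:**
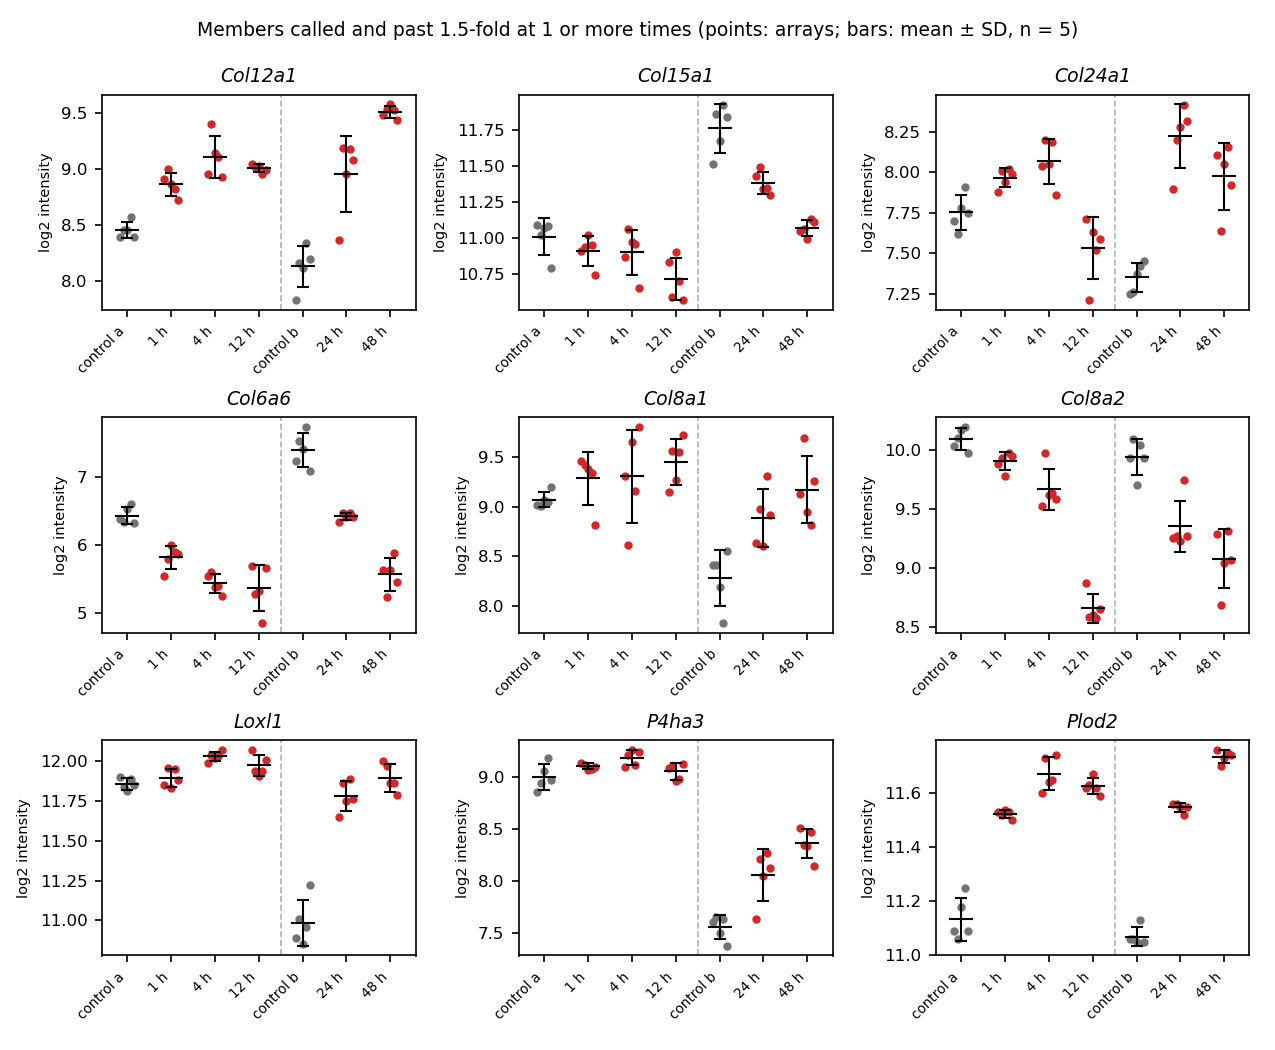
Log2 intensity (vertical axes, not starting at 0 and differing between panels) of the 9 members called and past 1.5-fold at 1 or more times, in the 7 groups; points are arrays, grey for controls and red for stretch, bars are the mean ± SD of 5 arrays, and the dashed line parts the sets. Col12a1 rises to between 9.44 and 9.58 at 48 h, while Col6a6 falls to between 5.24 and 5.89.

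Of the 5 type IV chains measured, which build the basement membrane, 3 were higher and 1 lower at 48 h. Col4a1 and Col4a2 make up its common trimer, and they are transcribed in opposite directions from a shared region. Their start sites in RefSeq (GRCr8) lie 77 bases apart, and the windows from 250 bases before to 50 bases after each start overlap by 176 bases. The windows are printed to show the shared region, with Col4a1 at chr16:84885347-84885646 on the plus strand and Col4a2 at chr16:84885471-84885770 on the minus strand. Capitals mark the CCAAT box (CCAAT, or ATTGG where it lies on the other strand), which stood in 37.5% of all 33469 promoter windows of the same length.
Col4a1: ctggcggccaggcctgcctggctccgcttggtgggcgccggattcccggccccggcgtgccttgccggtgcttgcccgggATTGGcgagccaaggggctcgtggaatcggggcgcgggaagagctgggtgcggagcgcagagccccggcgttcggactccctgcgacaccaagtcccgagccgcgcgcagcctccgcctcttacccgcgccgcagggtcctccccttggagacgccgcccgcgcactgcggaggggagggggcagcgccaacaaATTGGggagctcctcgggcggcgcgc
Col4a2: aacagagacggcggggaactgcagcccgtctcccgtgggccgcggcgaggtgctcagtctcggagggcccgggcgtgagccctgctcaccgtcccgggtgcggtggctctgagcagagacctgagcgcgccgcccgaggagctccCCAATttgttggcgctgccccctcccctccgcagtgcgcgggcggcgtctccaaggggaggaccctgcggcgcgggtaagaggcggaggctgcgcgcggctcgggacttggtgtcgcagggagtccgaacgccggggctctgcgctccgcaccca
The Col4a1 window held 2 matches and the Col4a2 window 1, which is the second of the Col4a1 matches read on the other strand, so that the pair had 2 sites in all. Neither window held TATAAA, which 14.2% of all windows did.

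For Col4a1 the controls of set I read 12.91, 12.95, 12.97, 12.95 and 12.91, the 4 h arrays 12.98, 13.10, 13.06, 12.99 and 12.98 and the 12 h arrays 13.08, 12.99, 13.08, 12.99 and 12.98. In set II Col4a1 read 12.56, 12.59, 12.62, 12.60 and 12.74 without stretch, 12.75, 12.81, 12.84, 12.78 and 12.78 after 24 h and 13.02, 12.96, 12.83, 12.92 and 12.78 after 48 h. All stretched arrays of set II lay above the controls, by 0.01 at the nearest. Col4a1 was higher at 24 h (0.17 ± 0.0528 SE, adjusted P = 0.0319) and 48 h (0.28 ± 0.0528 SE, adjusted P = 0.000575). The arrays at 4 and 12 h also lay above their controls, but neither time was called. The call of Col4a1 at 24 h was lost without any 1 of arrays 1, 2, 3 or 4 of the control group or any 1 of arrays 2, 3 or 5 of the 24 h group (highest adjusted P = 0.0818). A second probe set of Col4a1 was higher at 4 h (0.18, adjusted P = 0.00596) and 12 h (0.20, adjusted P = 0.0022) as well as 48 h, and not called at 24 h.

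For Col4a2 the controls of set I read 12.57, 12.59, 12.61, 12.64 and 12.29, the 4 h arrays 12.61, 13.0, 12.72, 12.80 and 12.70 and the 12 h arrays 12.92, 12.64, 12.98, 12.74 and 12.68. In set II Col4a2 read 12.09, 12.22, 11.97, 12.32 and 12.29 without stretch, 12.21, 12.55, 12.29, 12.59 and 12.45 after 24 h and 12.65, 12.42, 12.57, 12.65 and 12.56 after 48 h. The groups overlapped at 4, 12 and 24 h, and at 48 h each stretched array lay above every control. Col4a2 was higher at 4 h (0.22 ± 0.0776 SE, adjusted P = 0.0343), 12 h (0.25 ± 0.0776 SE, adjusted P = 0.0163) and 48 h (0.39 ± 0.0834 SE, adjusted P = 0.00154). The call of Col4a2 at 4 h was lost without any 1 of arrays 1 or 5 of the control group or any 1 of arrays 2 or 4 of the 4 h group, and with quantile normalization or with 1 stretch group fitted alone (highest adjusted P = 0.114). The call of Col4a2 at 12 h was lost without array 5 of the control group or array 3 of the 12 h group (highest adjusted P = 0.0579).

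Col4a5, a chain of a rarer type IV trimer, was also higher at 48 h (0.30 ± 0.0827 SE, adjusted P = 0.0105). Col4a4 was the exception of the type and was lower at 48 h (-0.45 ± 0.14 SE, adjusted P = 0.0193), a call lost without the fourth control array of set II. Col4a6 was not called at any time, while its second probe set, of the same brightness, was lower at 4 h (-0.26, adjusted P = 0.0225) and 12 h (-0.28, adjusted P = 0.0129).

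The type VI chains went down where they were called, with 1 early exception. Col6a1 was lower at 12 h (-0.18 ± 0.0464 SE, adjusted P = 0.00523), 24 h (-0.18 ± 0.0478 SE, adjusted P = 0.0153) and 48 h (-0.33 ± 0.0478 SE, adjusted P = 4.77e-05), and Col6a2 at 48 h (-0.24 ± 0.0782 SE, adjusted P = 0.028). The call of Col6a2 at 48 h was lost without any 1 of arrays 2, 4 or 5 of the control group or any 1 of arrays 2, 3 or 5 of the 48 h group, and with arrays centred on their median or with the mean of its probe sets (highest adjusted P = 0.194). Col6a3, the remaining chain of the common trimer, was higher at 4 h (0.31 ± 0.0651 SE, adjusted P = 0.00084) and then fell back by 12 h (-0.43 ± 0.0651 SE, adjusted P = 0.000145). A dimmer probe set of Col6a3 was not called at 4 h (0.36, adjusted P = 0.0812), and a dimmer one of Col6a2 was lower at 12 h (-0.27, adjusted P = 0.000473). Col6a5 was not called at any time, with changes between -0.10 and 0.04 and a mean level of 5.05.

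The largest fall among the members at 48 h was that of Col6a6, an alternative type VI chain thought to take the place of Col6a3 in the trimer. In set I Col6a6 read 6.38, 6.34, 6.53, 6.60 and 6.32 without stretch and 5.55, 5.80, 6.0, 5.90 and 5.87 after 1 h. At 4 h it read 5.55, 5.60, 5.39, 5.40 and 5.26, and at 12 h 5.69, 5.29, 5.33, 4.86 and 5.66. All 15 stretched arrays lay below all controls. In set II the controls read 7.24, 7.53, 7.41, 7.73 and 7.08, against 6.34, 6.47, 6.41, 6.47 and 6.41 after 24 h and 5.63, 5.24, 5.64, 5.89 and 5.46 after 48 h, again with no overlap. Col6a6 was lower at 1 h (-0.61 ± 0.121 SE, adjusted P = 0.00139), 4 h (-0.99 ± 0.121 SE, adjusted P = 2.34e-06) and 12 h (-1.07 ± 0.121 SE, adjusted P = 7.18e-07). It was lower at 24 h (-0.98 ± 0.117 SE, adjusted P = 4.37e-05) and 48 h (-1.83 ± 0.117 SE, adjusted P = 1.65e-08), the last a 3.55-fold fall. The step from 24 to 48 h also passed its own test (-0.85 ± 0.117 SE, adjusted P = 0.000444).

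Type VIII collagen is a short-chain collagen that forms a hexagonal network, and its chain Col8a1 was higher and its chain Col8a2 lower in set II. Col8a1 in set I read 9.02, 9.01, 9.07, 9.05 and 9.20 without stretch, 9.46, 9.42, 9.38, 9.34 and 8.82 after 1 h, 9.31, 8.61, 9.65, 9.16 and 9.80 after 4 h and 9.15, 9.56, 9.27, 9.55 and 9.72 after 12 h. The stretched arrays of set I overlapped the controls at each time, and none was called. In set II Col8a1 read 8.41, 8.41, 8.19, 7.83 and 8.55 without stretch, 8.63, 8.98, 8.60, 9.31 and 8.92 after 24 h and 9.13, 9.69, 8.95, 8.82 and 9.26 after 48 h. All 10 stretched arrays of set II lay above the controls, and Col8a1 was higher at 24 h (0.61 ± 0.17 SE, adjusted P = 0.0187) and 48 h (0.90 ± 0.17 SE, adjusted P = 0.000593). Without the fourth array at 24 h, the highest of that group, the call at 24 h had an adjusted P of 0.0505.

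Col8a2 read 10.03, 10.10, 10.17, 10.19 and 9.97 in unstretched cells of set I and 9.88, 9.93, 9.78, 9.97 and 9.95 after 1 h. At 4 h it read 9.52, 9.97, 9.62, 9.63 and 9.58, and at 12 h 8.87, 8.59, 8.60, 8.58 and 8.65. All arrays at 1 and 4 h lay below the lowest control, 1 array of each time by less than 0.01, and those at 12 h lay more than 1 unit below it. In set II Col8a2 read 9.93, 10.09, 9.70, 10.04 and 9.93 without stretch, 9.25, 9.27, 9.23, 9.74 and 9.27 after 24 h and 9.29, 8.69, 9.04, 9.31 and 9.07 after 48 h. The fourth array at 24 h overlapped the lowest control, and the 48 h arrays did not overlap.

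Col8a2 was lower at 4 h (-0.43 ± 0.0743 SE, adjusted P = 0.000135), 12 h (-1.43 ± 0.0743 SE, adjusted P = 1.42e-11), 24 h (-0.59 ± 0.12 SE, adjusted P = 0.0027) and 48 h (-0.86 ± 0.12 SE, adjusted P = 3.42e-05). The fall from 4 to 12 h passed its own test (-1.0 ± 0.0743 SE, adjusted P = 1.66e-08), and at 2.69-fold the 12 h value was the largest change of any member in set I. Col10a1, the third short-chain collagen, had a mean of 4.20 and was called at no time.

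The promoter windows of this pair are given because the chains moved apart, with Col8a1 at chr11:56246532-56246831 and Col8a2 at chr5:143870519-143870818, both on the plus strand of GRCr8. Capitals mark the Smad element CAGACA, searched on both strands and found in 21.1% of all windows.
Col8a1: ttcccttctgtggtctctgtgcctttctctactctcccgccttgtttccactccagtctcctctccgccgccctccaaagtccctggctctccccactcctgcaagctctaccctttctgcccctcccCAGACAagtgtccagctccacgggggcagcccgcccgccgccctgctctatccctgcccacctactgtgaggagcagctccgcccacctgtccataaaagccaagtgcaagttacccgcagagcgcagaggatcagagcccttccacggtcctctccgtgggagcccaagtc
Col8a2: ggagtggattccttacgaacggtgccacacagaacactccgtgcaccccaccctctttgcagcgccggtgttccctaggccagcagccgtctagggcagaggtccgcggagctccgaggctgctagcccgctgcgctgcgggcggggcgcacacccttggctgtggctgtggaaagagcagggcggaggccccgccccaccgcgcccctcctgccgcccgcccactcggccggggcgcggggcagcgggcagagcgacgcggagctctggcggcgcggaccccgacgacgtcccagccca
The Col8a1 window held 1 match, and the letters did not occur in the Col8a2 window. Of the 42 members with a window in the table, 8 held the element. Among them were Col15a1, which was called lower, and Loxl1 and P4ha3, which were called higher.

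**Figure D3:**
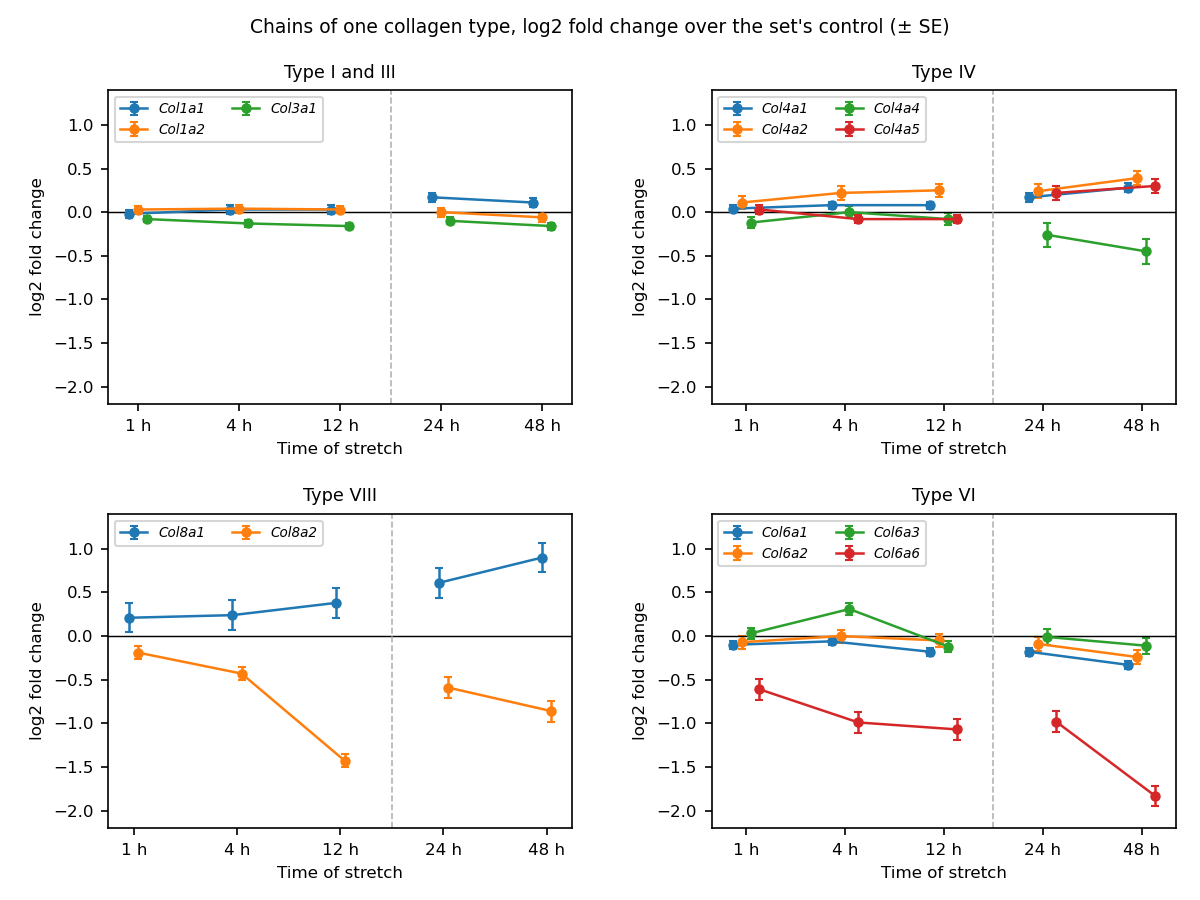
Log2 fold change over the control of the set (vertical axes, the same range in each panel) at the 5 times (horizontal axes; the dashed line parts the sets) for chains of types I and III, IV, VIII and VI; points are differences of group means and bars their SE. Col8a1 and Col8a2 lie on opposite sides of 0 at every time, and Col6a6 lies far below the other type VI chains.

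Col15a1, a multiplexin that links basement membranes to fibrils, was lower from 12 h on. In set I it read 11.09, 11.02, 11.07, 11.08 and 10.79 without stretch and 10.83, 10.59, 10.90, 10.70 and 10.57 after 12 h. Set II gave 11.51, 11.86, 11.67, 11.92 and 11.84 without stretch, 11.43, 11.49, 11.34, 11.35 and 11.30 after 24 h and 11.05, 11.06, 10.99, 11.13 and 11.11 after 48 h. The 12 h arrays overlapped the controls through the fifth of the controls, which was low, and the arrays of set II did not overlap. The change was -0.29 ± 0.0809 SE (adjusted P = 0.00699) at 12 h, -0.38 ± 0.0695 SE (adjusted P = 0.00116) at 24 h and -0.69 ± 0.0695 SE (adjusted P = 1.16e-06) at 48 h, and a second probe set of Col15a1 was lower at the same 3 times. Col18a1, the other multiplexin and the source of endostatin, was lower at 12 h (-0.21 ± 0.0523 SE, adjusted P = 0.00406).

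Of the remaining chains, Col7a1, which forms anchoring fibrils, was higher at 4 h (0.26 ± 0.0658 SE, adjusted P = 0.00508) and 48 h (0.38 ± 0.0842 SE, adjusted P = 0.0023). Col17a1 was higher (0.21 ± 0.0714 SE, adjusted P = 0.0315) and Col26a1 lower (-0.36 ± 0.113 SE, adjusted P = 0.0206) at 48 h alone, both with means under 6. In all, 18 chains were called at no time, and 13 of the 22 members never called had a mean under 6.

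Of the 13 processing proteins 2, 6, 5, 6 and 6 were higher over the 5 times. These are shares of 15.4%, 46.2%, 38.5%, 46.2% and 46.2%, against 8.24%, 17.1%, 19.4%, 13.5% and 22.5% of all genes. Of the higher calls at 4 h, those of P4ha3, Plod3 and Serpinh1 were lost with 1 stretch group fitted alone. Lower were 0%, 0%, 15.4%, 7.69% and 7.69%, against 8.3%, 19.2%, 19.7%, 10.1% and 18.4%, and these calls were those of P4ha2 at 12, 24 and 48 h and of Loxl3 at 12 h.

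Lysyl hydroxylases prepare lysines for cross-links and for sugar attachment. Plod2, which acts on the ends of the chains where cross-links form, read 11.09, 11.06, 11.18, 11.25 and 11.09 in unstretched cells of set I and 11.53, 11.52, 11.54, 11.53 and 11.50 after 1 h. At 4 h it read 11.60, 11.73, 11.64, 11.65 and 11.74, and at 12 h 11.62, 11.63, 11.67, 11.62 and 11.59. Arrays of set II read 11.06, 11.06, 11.05, 11.13 and 11.05 without stretch, 11.56, 11.56, 11.55, 11.52 and 11.55 after 24 h and 11.76, 11.70, 11.73, 11.75 and 11.74 after 48 h. No stretched array overlapped a control in either set. The change of Plod2 was 0.39 ± 0.0415 SE (adjusted P = 1.11e-06) at 1 h, 0.54 ± 0.0415 SE (adjusted P = 5.28e-09) at 4 h and 0.49 ± 0.0415 SE (adjusted P = 1.38e-08) at 12 h. It was 0.48 ± 0.0382 SE (adjusted P = 2.21e-06) at 24 h and 0.67 ± 0.0382 SE (adjusted P = 6.5e-09) at 48 h, and its rise from 24 to 48 h passed its own test (0.19 ± 0.0382 SE, adjusted P = 0.00617).

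Plod3, which also attaches sugars to hydroxylysine, was higher at 4 h (0.14 ± 0.0391 SE, adjusted P = 0.00805), 12 h (0.15 ± 0.0391 SE, adjusted P = 0.00425), 24 h (0.28 ± 0.0597 SE, adjusted P = 0.0038) and 48 h (0.39 ± 0.0597 SE, adjusted P = 8.28e-05). The call of Plod3 at 4 h was lost with 1 stretch group fitted alone (highest adjusted P = 0.0543). Plod1, the hydroxylase of the helical region, was called at no time and changed by -0.03, -0.06, 0.02, -0.08 and -0.09.

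The catalytic subunits of prolyl 4-hydroxylase, whose product lets the triple helix stay folded at body temperature, split in direction. P4ha1 read 10.99, 11.10, 11.01, 11.11 and 11.02 in unstretched cells of set I and 11.20, 11.21, 11.21, 11.24 and 11.30 after 1 h. At 4 h it read 11.26, 11.30, 11.15, 11.15 and 11.24, and at 12 h 11.29, 11.17, 11.24, 11.17 and 11.19. In set II it read 11.27, 11.33, 11.12, 11.38 and 11.26 without stretch, 11.36, 11.54, 11.45, 11.60 and 11.44 after 24 h and 11.81, 11.85, 11.76, 11.75 and 11.79 after 48 h. Stretched arrays lay above all controls except at 24 h, where the lowest array overlapped the highest control. P4ha1 was higher at 1 h (0.18 ± 0.042 SE, adjusted P = 0.00515), 4 h (0.17 ± 0.042 SE, adjusted P = 0.00311) and 12 h (0.17 ± 0.042 SE, adjusted P = 0.00402), and at 24 h (0.21 ± 0.0567 SE, adjusted P = 0.0165) and 48 h (0.52 ± 0.0567 SE, adjusted P = 2.77e-06). The rise from 24 to 48 h was 0.31 ± 0.0567 SE (adjusted P = 0.00352).

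P4ha2 read 10.66, 10.69, 10.68, 10.78 and 10.65 in unstretched cells of set I, 10.61, 10.57, 10.60, 10.62 and 10.61 after 4 h and 10.13, 10.04, 10.25, 10.19 and 10.09 after 12 h. Arrays of set II read 10.40, 10.55, 10.38, 10.55 and 10.47 without stretch, 10.28, 10.14, 10.04, 10.18 and 10.02 after 24 h and 9.96, 9.91, 9.91, 10.11 and 9.89 after 48 h. The arrays at 12, 24 and 48 h lay below all controls of their set, as did those at 4 h by a margin of 0.03. P4ha2 was lower at 12 h (-0.55 ± 0.0433 SE, adjusted P = 5.37e-09), 24 h (-0.34 ± 0.0619 SE, adjusted P = 0.00117) and 48 h (-0.51 ± 0.0619 SE, adjusted P = 7.71e-06), and the fall from 4 to 12 h passed its own test (-0.46 ± 0.0433 SE, adjusted P = 4.24e-07). A dimmer probe set of P4ha2, with a mean of 7.10, was not called at any time, at -0.11, -0.18 and -0.08 for these 3 times.

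P4ha3 differed between the sets in its level. It read 8.86, 8.94, 9.06, 9.18 and 8.97 in unstretched cells of set I and 9.10, 9.21, 9.26, 9.12 and 9.24 after 4 h. In set II it read 7.61, 7.66, 7.50, 7.64 and 7.38 without stretch, 7.64, 8.21, 8.05, 8.27 and 8.13 after 24 h and 8.51, 8.35, 8.34, 8.47 and 8.15 after 48 h. The 48 h arrays lay above their own controls and below every array of set I, a difference between sets that was not tested, since the upper quartiles of the arrays differ between sets. P4ha3 was higher at 4 h (0.18 ± 0.0544 SE, adjusted P = 0.014), 24 h (0.50 ± 0.104 SE, adjusted P = 0.0029) and 48 h (0.81 ± 0.104 SE, adjusted P = 1.51e-05). The call of P4ha3 at 4 h was lost without array 1 of the control group, and with 1 stretch group fitted alone (highest adjusted P = 0.0569).

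Promoter windows are given for some of the hydroxylases called from 12 h on in opposite directions. They are Plod2 at chr8:101964068-101964367, P4ha1 at chr20:27844796-27845095 and P4ha2 at chr10:38743644-38743943, all on the plus strand of GRCr8. These genes are known targets of the hypoxia-inducible factors, and capitals mark the core of the hypoxia-response element (ACGTG, or CACGT where it lies on the other strand), which stood in 19.3% of all windows.
Plod2: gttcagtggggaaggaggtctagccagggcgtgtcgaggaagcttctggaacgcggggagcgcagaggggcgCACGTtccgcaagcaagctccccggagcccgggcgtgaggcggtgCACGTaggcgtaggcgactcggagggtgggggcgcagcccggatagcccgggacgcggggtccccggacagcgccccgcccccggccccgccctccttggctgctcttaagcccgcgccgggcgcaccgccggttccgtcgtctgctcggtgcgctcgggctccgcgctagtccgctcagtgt
P4ha1: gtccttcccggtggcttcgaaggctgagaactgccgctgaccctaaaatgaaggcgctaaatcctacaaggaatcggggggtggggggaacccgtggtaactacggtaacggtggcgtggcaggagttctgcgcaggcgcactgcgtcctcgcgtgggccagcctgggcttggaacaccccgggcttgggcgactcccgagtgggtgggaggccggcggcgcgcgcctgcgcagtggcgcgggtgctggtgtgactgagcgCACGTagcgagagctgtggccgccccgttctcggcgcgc
P4ha2: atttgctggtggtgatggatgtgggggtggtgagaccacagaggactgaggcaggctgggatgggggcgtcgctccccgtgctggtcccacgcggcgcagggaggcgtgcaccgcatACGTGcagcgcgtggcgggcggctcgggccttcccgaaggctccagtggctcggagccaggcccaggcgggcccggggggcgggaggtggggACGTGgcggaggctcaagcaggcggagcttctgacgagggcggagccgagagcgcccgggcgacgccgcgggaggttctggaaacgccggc
Plod2 held 2 matches, P4ha1 1 and P4ha2 2, so among the windows shown the core stood in both the genes that rose and the gene that fell. The windows of Plod3 and P4ha3, which were also called higher, did not hold the core, nor did that of Plod1. Of the 42 members with a window in the table, 6 held the core.

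Lysyl oxidases join collagen and elastin chains outside the cell. Loxl1, which is needed for elastic fibres, read 11.90, 11.84, 11.81, 11.89 and 11.85 in unstretched cells of set I, 11.99, 12.04, 12.02, 12.03 and 12.07 after 4 h and 12.07, 11.94, 11.91, 11.94 and 12.01 after 12 h. Arrays of set II read 10.89, 11.01, 10.85, 10.96 and 11.22 without stretch, 11.65, 11.86, 11.75, 11.89 and 11.76 after 24 h and 12.0, 11.97, 11.86, 11.86 and 11.79 after 48 h. No stretched array at these 4 times overlapped its controls. Loxl1 was higher at 4 h (0.17 ± 0.0402 SE, adjusted P = 0.00257) and 12 h (0.12 ± 0.0402 SE, adjusted P = 0.029), and by more than 1.5-fold at 24 h (0.80 ± 0.0706 SE, adjusted P = 4.2e-06) and 48 h (0.91 ± 0.0706 SE, adjusted P = 8.75e-08). The call of Loxl1 at 12 h was lost without any 1 of arrays 2, 3 or 5 of the control group or any 1 of arrays 1 or 5 of the 12 h group, and with quantile normalization (highest adjusted P = 0.281).

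Loxl2, a lysyl oxidase that acts on type IV collagen, was higher at 24 h (0.46 ± 0.145 SE, adjusted P = 0.0375) and 48 h (0.56 ± 0.145 SE, adjusted P = 0.00655). Its other probe set gave another time course, higher at 1 h (0.25, adjusted P = 0.0262), 4 h (0.68, adjusted P = 6.69e-07), 12 h (0.67, adjusted P = 5.77e-07) and 48 h (0.46, adjusted P = 0.0125) and not called at 24 h. The call of Loxl2 at 24 h was lost without any 1 of arrays 1, 4 or 5 of the control group or any 1 of arrays 2, 4 or 5 of the 24 h group, and by the methods' one-way analysis (highest adjusted P = 0.0953).

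Lox itself was called at no time against control, with changes of 0.11, 0.11, -0.10, 0.09 and 0.10, although its level at 12 h was below that at 4 h (-0.21 ± 0.047 SE, adjusted P = 0.00677). Loxl3 was lower at 12 h (-0.14 ± 0.0455 SE, adjusted P = 0.02). The call of Loxl3 at 12 h was lost without array 1 of the control group or any 1 of arrays 2 or 3 of the 12 h group, and with arrays centred on their median (highest adjusted P = 0.116). The collagen chaperone Serpinh1 was higher at 4 h (0.11 ± 0.0377 SE, adjusted P = 0.0281) and 12 h (0.24 ± 0.0377 SE, adjusted P = 3.89e-05) and not called at 24 h (0.11 ± 0.045 SE, adjusted P = 0.0937) or 48 h (0.12 ± 0.045 SE, adjusted P = 0.0561). The call of Serpinh1 at 4 h was lost without any 1 of arrays 1 or 5 of the control group or any 1 of arrays 2, 3 or 4 of the 4 h group, and with quantile normalization, with 1 stretch group fitted alone or with the mean of its probe sets (highest adjusted P = 0.129). Bmp1, which removes the C-propeptide, and Pcolce, which speeds that step, were called at no time, with 95% intervals of the change that ran from -0.35 to 0.13 and from -0.18 to 0.10 over the 5 times.

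**Figure D4:**
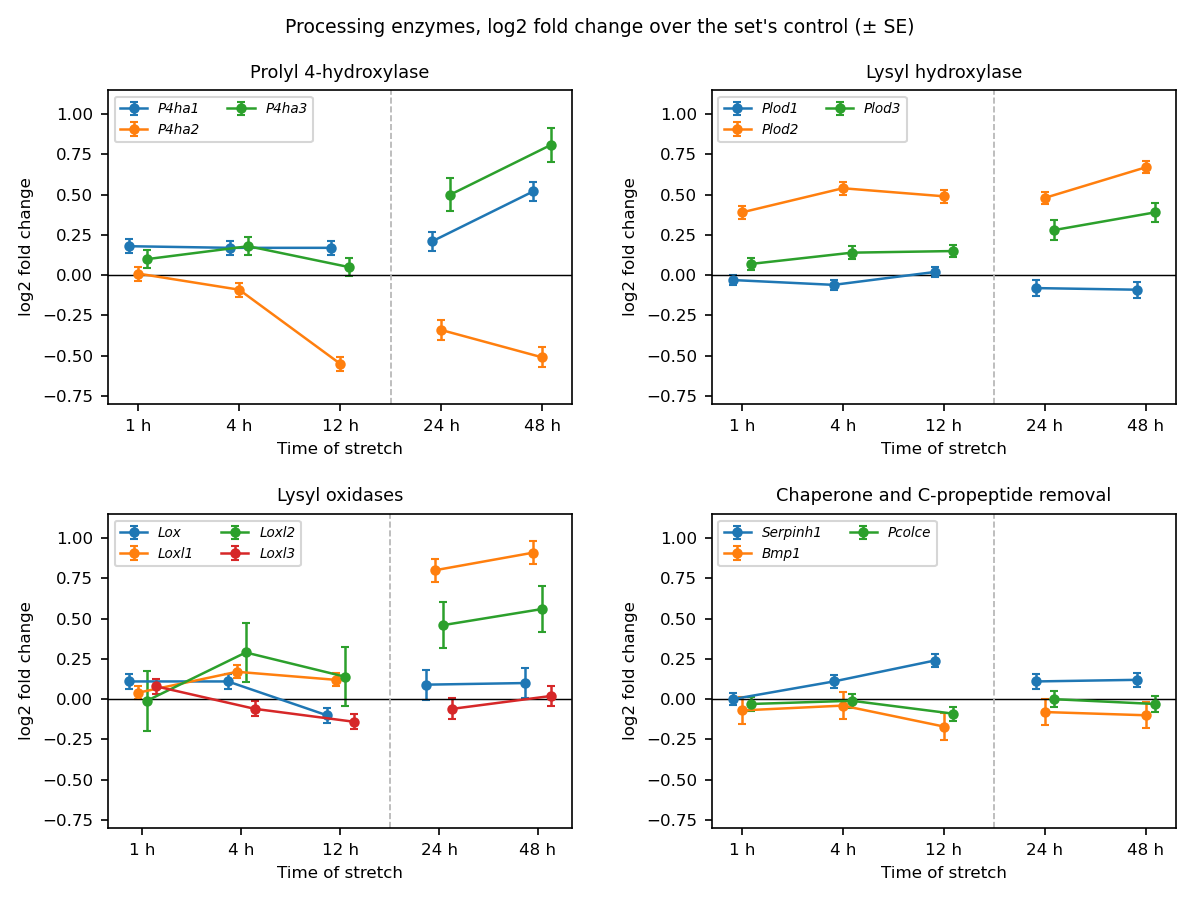
Log2 fold change over the control of the set (vertical axes, the same range in each panel) at the 5 times (horizontal axes; the dashed line parts the sets) for prolyl 4-hydroxylase subunits, lysyl hydroxylases, lysyl oxidases, and the chaperone with the C-propeptide proteins; bars are SE. Plod2 lies above 0 at every time, and P4ha2 lies between -0.55 and -0.34 from 12 h on while P4ha1 stays above 0.

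Other genes of the pathway were counted over lists. They are to be read against the shares of all genes at the 5 times, 8.24%, 17.1%, 19.4%, 13.5% and 22.5% higher and 8.3%, 19.2%, 19.7%, 10.1% and 18.4% lower. Among 15 folding and modification partners, 0, 1, 2, 3 and 5 were higher and 1, 3, 5, 0 and 0 lower at the 5 times. The 20% lower at 4 h is near the 19.2% of all genes, and the 33.3% lower at 12 h and 33.3% higher at 48 h compare with 19.7% and 22.5%. P3h1, a prolyl 3-hydroxylase, was higher from 4 h on and reached 0.26 at 48 h (adjusted P = 0.000923), and P3h4 was lower at 12 h (-0.22, adjusted P = 0.01) and higher at 48 h (0.37, adjusted P = 0.00455). Hspa5, the general chaperone of the endoplasmic reticulum, was lower at 1, 4 and 12 h. Of 8 genes for export from the endoplasmic reticulum, 0, 0, 1, 0 and 0 were higher and 0, 2, 2, 1 and 2 lower, with Klhl12 lower from 4 h on.

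All calls in a list of 8 genes, the fibril-binding proteoglycans with Sparc, were lower ones, 2, 5, 6, 3 and 5 at the 5 times (25%, 62.5%, 75%, 37.5% and 62.5%). Fmod, fibromodulin, was lower at all 5 times and changed by -1.71 at 48 h (adjusted P = 5.24e-08), and Ogn by -0.95 (adjusted P = 1.51e-05). Of 5 collagen receptors, 2, 2, 2, 2 and 4 were higher and none was lower at any time, among them Itga11 at 48 h (0.55, adjusted P = 0.00484) and Ddr1 at 12 h (0.50, adjusted P = 1.87e-06).

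Of 4 further propeptide and cross-linking proteins, Fn1 was higher at 48 h (0.29, adjusted P = 4.14e-05), while Fbln5 (-0.62, adjusted P = 4.54e-05) and Postn were lower. In set I 1, 1 and 3 of these 4 were lower and none was higher, and at 24 h 1 was higher and 1 lower. Of 11 breakdown and uptake genes, protease inhibitors included, 1, 1, 1, 2 and 1 were higher and 0, 3, 2, 2 and 4 lower. The 9.09% higher at 1 h and the 18.2% lower at 12 h are near the 8.24% and 19.7% of all genes. The 9.09% higher and 36.4% lower at 48 h compare with 22.5% and 18.4%. The inhibitor Timp1 was higher at all 5 times, with 0.69 at 48 h (adjusted P = 2.37e-07). At 1, 4, 12 and 48 h Timp1 was the only gene of the list called higher. The protease Mmp9 (-1.33, adjusted P = 3.4e-08) and the inhibitor Timp3 were lower at 48 h.

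Of 12 genes of transforming growth factor-beta signalling, a known inducer of collagen synthesis, 8, 8, 7, 6 and 8 were higher and only Tgfb3 at 12 h was lower. The shares higher were 66.7%, 66.7%, 58.3%, 50% and 66.7%, against 8.24%, 17.1%, 19.4%, 13.5% and 22.5% of all genes. At 48 h the largest changes of the list were those of Tgfb2 (1.91, adjusted P = 1.75e-06), Ltbp1 (1.53, adjusted P = 4.84e-07) and Tgfb3 (1.53, adjusted P = 0.000291).

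Markers of the cells that make collagen moved in the same arrays. Counts of markers are to be read against the shares of all genes, 8.24%, 17.1%, 19.4%, 13.5% and 22.5% higher and 8.3%, 19.2%, 19.7%, 10.1% and 18.4% lower. The fibroblast list shares Dcn, Lum, Postn, Ddr2 and Fap with the lists above. Of its 12 markers that are not members, 4, 7, 8, 2 and 7 were lower (33.3%, 58.3%, 66.7%, 16.7% and 58.3%) and 0, 0, 0, 2 and 2 higher (16.7% at 24 and 48 h). Their summed intensity was 54690 to 57430 in the controls of set I, and 49990 to 53300, 48320 to 51220 and 48090 to 50350 at 1, 4 and 12 h. In set II the sum was 55950 to 58990 in the controls, 51710 to 54810 at 24 h and 47640 to 52420 at 48 h. No stretched group overlapped its controls. Pdgfra, the receptor that defines cardiac fibroblasts, was lower at 4 h (-1.17, adjusted P = 2.68e-10) and 48 h (-1.04, adjusted P = 2.93e-08), as was Dpt at 48 h (-0.67, adjusted P = 7.13e-07). In the other direction, the group means of S100a4, Ddr2 and Mfap5 went from 13.26, 10.56 and 7.52 in the controls of set II to 13.53, 10.74 and 7.77 at 48 h. Only 2 markers of the list were called higher at 48 h, so not all of these rises were called. The part of these markers in the changes of the collagen genes was not tested.

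Of 10 smooth muscle and pericyte markers 4, 5, 2, 5 and 5 were higher (40%, 50%, 20%, 50% and 50%) and 2, 3, 3, 2 and 3 lower (20%, 30%, 30%, 20% and 30%). Des, which myocytes also express, is on this list with group means of 12.36 to 13.08 and was higher at all 5 times. The group means of Cnn1, Acta2, Tagln and Cspg4 went from 6.49, 9.32, 9.95 and 9.07 in the controls of set II to 9.38, 10.43, 10.73 and 10.08 at 48 h. In set I they went from 8.88, 10.26, 11.53 and 9.06 to 9.38, 10.76, 12.07 and 9.47 at 4 h and 9.29, 10.07, 11.62 and 9.17 at 12 h. Myh11 and Pdgfrb went from 6.86 and 9.61 in the controls of set II to 6.92 and 9.52 at 48 h. Rgs5, Kcnj8 and Abcc9 of the same list were lower, Rgs5 at 4, 12 and 48 h and Kcnj8 and Abcc9 at all 5 times. The sum of the list was 12810 to 14130 in the controls of set I, and 14900 to 16240, 15170 to 17430 and 14320 to 15300 at 1, 4 and 12 h. It was 10060 to 12240 in the controls of set II, 11390 to 16000 at 24 h, which overlaps them, and 15260 to 16510 at 48 h. Of 7 endothelial markers 0, 5, 5, 3 and 6 were lower (0%, 71.4%, 71.4%, 42.9% and 85.7%). Of 8 macrophage markers 0, 2, 3, 2 and 6 were lower (0%, 25%, 37.5%, 25% and 75%). None of either list was higher. Endothelial sums were 2025 to 2483 in the controls of set I and 1541 to 1858 at 12 h, and 2998 to 3937 in the controls of set II and 2074 to 2248 at 48 h. Macrophage sums were 1316 to 1595 and 1137 to 1343 in the same groups of set I, and 4749 to 4984 and 2775 to 3458 in those of set II. Mesothelial and epicardial markers (5 measured) had 1 higher at each time and 3 lower at 12 h, with sums from 430.4 to 859.4 over all arrays. Schwann and neural crest markers (3 measured) had 1 lower at 4 h and 1 higher at 48 h, with sums from 99.86 to 119.8 over all arrays.

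The labelled myocytes were present throughout, with 12 of 12 cardiomyocyte markers at group means of 10.65 to 14.26. Their summed intensity was 146200 to 151700 in the controls of set I and 137600 to 141900 at 12 h, without overlap. At 1 h (141300 to 147800) and 4 h (141500 to 149100) it overlapped the controls. In set II it was 142200 to 145700 in the controls, 134400 to 142000 at 24 h and 126800 to 133300 at 48 h. Neither stretched group of set II overlapped its controls. Of the 12 cardiomyocyte markers, 2, 3, 5, 4 and 7 were lower (16.7%, 25%, 41.7%, 33.3% and 58.3%) and 0, 0, 0, 1 and 1 higher. The lower shares compare with 8.3%, 19.2%, 19.7%, 10.1% and 18.4% of all genes. The part of the cardiomyocyte markers, too, in the values of the collagen genes was not tested.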

How the data were processed

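Cells, arrays and scaling were those of the study. The authors made the deposited intensity values, 1 per probe set and array on a linear scale, by Robust Multichip Average (RMA) in GeneSpring, and the upper quartiles of the arrays (341.3 to 372.0 in set I, 394.7 to 416.4 in set II) differ between sets, so all tests stayed within a set. A spreadsheet had turned 471 of 1088465 values into dates, and these were read back as intensities. The 57 control probe sets among 31099 were not used. On log2 values limma 3.58.1 (R 4.3.3) was used for a mean per group within a set, with variances moderated across probe sets, and each comparison's P-values had a Benjamini-Hochberg adjustment across the 31042 probe sets. The methods' one-way analysis of variance was an alternative. The median residual SD was 0.114 in set I and 0.12 in set II, and the 5 arrays per group, biological replicates in the methods, limit the precision. The annotation gives 1 gene for 20826 probe sets, several for 436 and none for 9780. Tested on simulated data, the fit missed some changes of 2-fold or more in probe sets with a large residual SD, and the pass mark of that test was set for the remaining probe sets after this was seen.

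The members, the lists and the rule for named genes were chosen with earlier results of these data known. Named were members past 1.5-fold, chains of types I, III, IV, V, VI and VIII, the enzymes, and up to 4 genes per list with the largest change. Promoter windows came from RefSeq (GRCr8) and covered 42 of 54 members. Tables were handled in Python 3.11.15 with pandas 2.3.3 and numpy 2.4.6.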

Additional observations from a re-analysis of the deposited data

Results flagged for a closer look

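In 18 of 238 groups of 5 arrays of the named genes, 1 array lay far from the other 4 by Dixon's test, which chance alone gives in about 1 in 20 groups. In the fifth array of the 1 h group Col1a1 read 13.21 where the other 4 read 13.37 to 13.41, Col1a2 read 13.32 where the other 4 read 13.46 to 13.49, Col8a1 read 8.82 where the other 4 read 9.34 to 9.46 and Loxl2 read 8.08 where the other 4 read 8.83 to 9.04. In the fifth array of the controls of set I Col15a1 read 10.79 where the other 4 read 11.02 to 11.09, Col4a2 read 12.29 where the other 4 read 12.57 to 12.64 and Col6a2 read 12.05 where the other 4 read 12.21 to 12.28. In the first array of the 12 h group Col5a3 read 8.79 where the other 4 read 8.65 to 8.69 and Col8a2 read 8.87 where the other 4 read 8.58 to 8.65. In the first array of the 24 h group Col12a1 read 8.37 where the other 4 read 8.96 to 9.19. In the fifth array of the 24 h group Col6a5 read 5.26 where the other 4 read 5.46 to 5.51. In the second array of the 4 h group Col8a2 read 9.97 where the other 4 read 9.52 to 9.63. In the fourth array of the 24 h group Col8a2 read 9.74 where the other 4 read 9.23 to 9.27. In the first array of the controls of set II Lox read 10.19 where the other 4 read 10.44 to 10.52. In the second array of the 48 h group Loxl2 read 9.27 where the other 4 read 8.60 to 8.79. In the first array of the 4 h group Loxl3 read 8.23 where the other 4 read 8.30 to 8.33. In the fourth array of the controls of set II Plod2 read 11.13 where the other 4 read 11.05 to 11.06. In the fifth array of the 4 h group Plod3 read 10.56 where the other 4 read 10.37 to 10.39.

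The difference between neighbouring times of a set was tested for the 54 members and passed in 22 of 162 tests (limma, adjusted over all probe sets). The share of all probe sets that passed was not counted. From 1 to 4 h the level fell for Col6a6 (-0.38, adjusted P = 0.0406), Col11a1 (-0.25, adjusted P = 0.0116), Col8a2 (-0.24, adjusted P = 0.0362), Col14a1 (-0.15, adjusted P = 0.0282) and Loxl3 (-0.14, adjusted P = 0.0439). Over the same step it rose for Loxl1 (0.13, adjusted P = 0.0298), Plod2 (0.15, adjusted P = 0.0212), Col12a1 (0.24, adjusted P = 0.0263) and Col6a3 (0.28, adjusted P = 0.00576). From 4 to 12 h the level fell for Col8a2 (-1.0, adjusted P = 1.66e-08), Col24a1 (-0.53, adjusted P = 0.000147), P4ha2 (-0.46, adjusted P = 4.24e-07), Col6a3 (-0.43, adjusted P = 0.000145), Col5a3 (-0.27, adjusted P = 0.00334), Lox (-0.21, adjusted P = 0.00677) and Col14a1 (-0.18, adjusted P = 0.00909). Over the same step it rose for Serpinh1 (0.13, adjusted P = 0.0372). From 24 to 48 h the level fell for Col6a6 (-0.85, adjusted P = 0.000444) and Col15a1 (-0.31, adjusted P = 0.0123). Over the same step it rose for Plod2 (0.19, adjusted P = 0.00617), P4ha1 (0.31, adjusted P = 0.00352) and Col12a1 (0.56, adjusted P = 0.0157).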

How the results depend on the processing

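No change of a named gene reversed under any alternative that was run. Of 71 called changes of named genes, 54 were kept under all of them and 17 were lost at least once. A change called neither in the fit reported nor under the alternative was taken as the same whatever its sign. At 1 h 3 members were higher in the fit reported, against 5 with quantile normalization, 7 with array weights and 5 where the control and 1 stretch group were fitted alone. Lower at 1 h were 1 as reported, 2 by the methods' one-way analysis, with quantile normalization, with dim probe sets (no group mean above log2 6) left out, with 1 stretch group fitted alone and with the mean of a gene's probe sets, and 3 with array weights and with a trended and robust prior. At 4 h, 7 were higher where 1 stretch group was fitted alone, against 11, and 3 lower both there and with arrays centred on their median, against 5. Without single arrays the counts higher ran from 3 to 4, 8 to 13, 5 to 8, 9 to 16 and 14 to 18 at the 5 times and those lower from 1 to 3, 4 to 6, 9 to 13, 5 to 6 and 7 to 9. The 3 lower at 1 h came without the second array at 4 h.

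Arrays with the same replicate number did not deviate together (pairs of set I had correlations of -0.3 to 0.34, of set II -0.39 to 0.54). With the replicate number as a block 3, 12, 7, 12 and 14 members were higher and 1, 5, 10, 5 and 9 lower. Among named genes the block lost the calls of Col24a1 at 12 h (adjusted P = 0.0544), Col4a1 at 24 h (0.0723) and Col5a2 at 48 h (0.0655), and gained those of Lox at 4 h and Col4a2 at 24 h.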

Other observations

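Some probe sets of the members deviated from their group means together over the 35 arrays. Among 2850 pairs of the 76 probe sets the median correlation of these deviations was 0.09, and 11 pairs reached 0.8. The highest was that of Col4a2 with Col6a2, at 0.95, and next came the brightest probe sets of Col8a1 and Loxl2, at 0.89. The second probe set of Loxl2 had a correlation of 0.11 with the first and 0.08 with Col8a1. Of all probe sets on the array, 111 had a correlation of 0.8 or more with Col8a1. The values share arrays and their preparation, and what moved them together was not tested.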
